A study of Rattus norvegicus with 6 samples.

Results

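The respiratory chain genes described here are the nuclear genes for the subunits of the 5 complexes of mitochondrial oxidative phosphorylation, together with the complex I assembly factors that share the Nduf prefix. They were chosen by name. A gene belongs to the set when the RefSeq accession of its probe maps to a symbol that begins with Nduf, Uqcr, Cox4, Cox5, Cox6, Cox7, Cox8 or Atp5, or is Sdha, Sdhb, Sdhc, Sdhd or Cyc1. This rule found 80 genes, read by 83 probes, among 13861 coding genes named on the array. Of these, 78 were tested among 10990 coding genes, and 76 of the 78 were well above background on all 6 arrays, and were therefore tested whichever group was higher. The other 2 tested genes, Ndufb11 and Cox4i2, were well above background on 4 and 5 arrays. The 2 genes of the 80 that were not tested, Uqcrq and Cox8c, were not well above background on any array. A further 39 coding symbols that fit the rule, among them Cyc1, Cox7a1 and Ndufa4l2, had no matched probe and were not analysed here. The gene table also lists 108 pseudogenes whose names fit the rule, and whether a probe reads their transcripts too was not tested.

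The study compared the border zone of an acute myocardial infarct with the heart muscle of sham-operated animals. Male Wistar rats had the left anterior descending coronary artery (LAD) tied, and 6 hours later the tissue around the infarct was identified by a double stain, TTC with EB, and taken for RNA (arrays M17, M24 and M25). The controls were 3 male Wistar rats that had the sham operation (arrays C4, C5 and C6, whose titles name the tissue as a control zone, also at 6 hours). No gene was altered and no drug was named in either group. Each array was hybridised with Cy3-labelled RNA of 1 sample, and levels are given as log2 signal minus the 75th percentile of the same array. A value of 0 is thus the level of a probe at that percentile, and the levels of different probes are not compared. Throughout, 3 values in a row are in the order M17, M24, M25 for the border zone and C4, C5, C6 for sham.

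Oxidative phosphorylation passes electrons from NADH through complex I, and from succinate through complex II, to ubiquinone, complex III, cytochrome c and complex IV, and complex V uses the proton gradient so built to make ATP. Cardiomyocytes hold more mitochondria than almost any other cell and draw nearly all of their ATP from this route. Most subunits are encoded in the nucleus, and their genes are known targets of the nuclear respiratory factors and of estrogen-related receptors working with the PGC-1 coactivators. The few core subunits encoded by mitochondrial DNA lie outside the rule.

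The arrays differed in ways that bear on every value below. Between 51.0% and 78.3% of probes were well above background, with C5 and C6 the lowest at 51.0% and 52.4%. By scan date, C5 and C6 each stood apart from the other arrays of this study, whereas C4 shared its scan date with the 3 border zone arrays. C5 and C6 also carried nervous tissue transcripts: all 8 tested neuron markers and all 10 tested astrocyte and oligodendrocyte markers were higher on these 2 arrays than on the other 4, 3 of 14 neuron markers were not well above background on any array, and the summed neuron level was 1.50 and 1.54 on them against -1.80 to -1.05 elsewhere. M25 lay between M17 and M24 for 7914 of 10990 coding genes, including 62 of the 78 respiratory chain genes, so results are also given without it. Heart muscle RNA was present on all 6 arrays: the summed level of 18 cardiomyocyte markers ran from 10.1 to 10.4, and none of the 18 passed the test. These markers cannot show whether C5 and C6 held heart tissue alone. In such bulk tissue, fewer cells of a type and less RNA per cell cannot be told apart.

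At 6 hours the subunit transcripts of the border zone were close to those of sham hearts. None of the 73 tested subunits passed the test in either direction, whereas 3 of the 5 tested complex I assembly factors, Ndufaf3, Ndufaf4 and Ndufaf5, were higher in the border zone. The test was limma's moderated comparison over all 17930 tested probes with Benjamini-Hochberg adjustment, at an adjusted p below 0.05. Among the 78 tested genes this gave 3 higher and 0 lower, beside 9.89% of all coding genes called higher and 11.9% called lower. At an unadjusted p below 0.05, 11 of the 78 differed, 7 of them subunits. The median difference of the 78 genes, border zone minus sham, was -0.06 on the log2 scale, and that of all coding genes was -0.05.

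The differences were also small in size. They ran from -0.57 for Cox6b2 to 0.79 for Cox6b1, and none reached 1 in either direction, a size reached by 14.5% of all coding genes. The 95% confidence interval of the difference lay within 1 log2 unit of 0 for 73 of the 78 genes (93.6%), against 6414 of 10990 coding genes (58.4%). It lay within 0.5 for 30 of them, so for the rest these arrays do not bound the difference to less than that size. The median standard error was 0.15 for the respiratory chain genes and 0.17 for all coding genes. The 2 groups of arrays did not overlap for 20 of the 78 genes, or 25.6%, beside 46.9% of all coding genes.

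**Figure D1:**
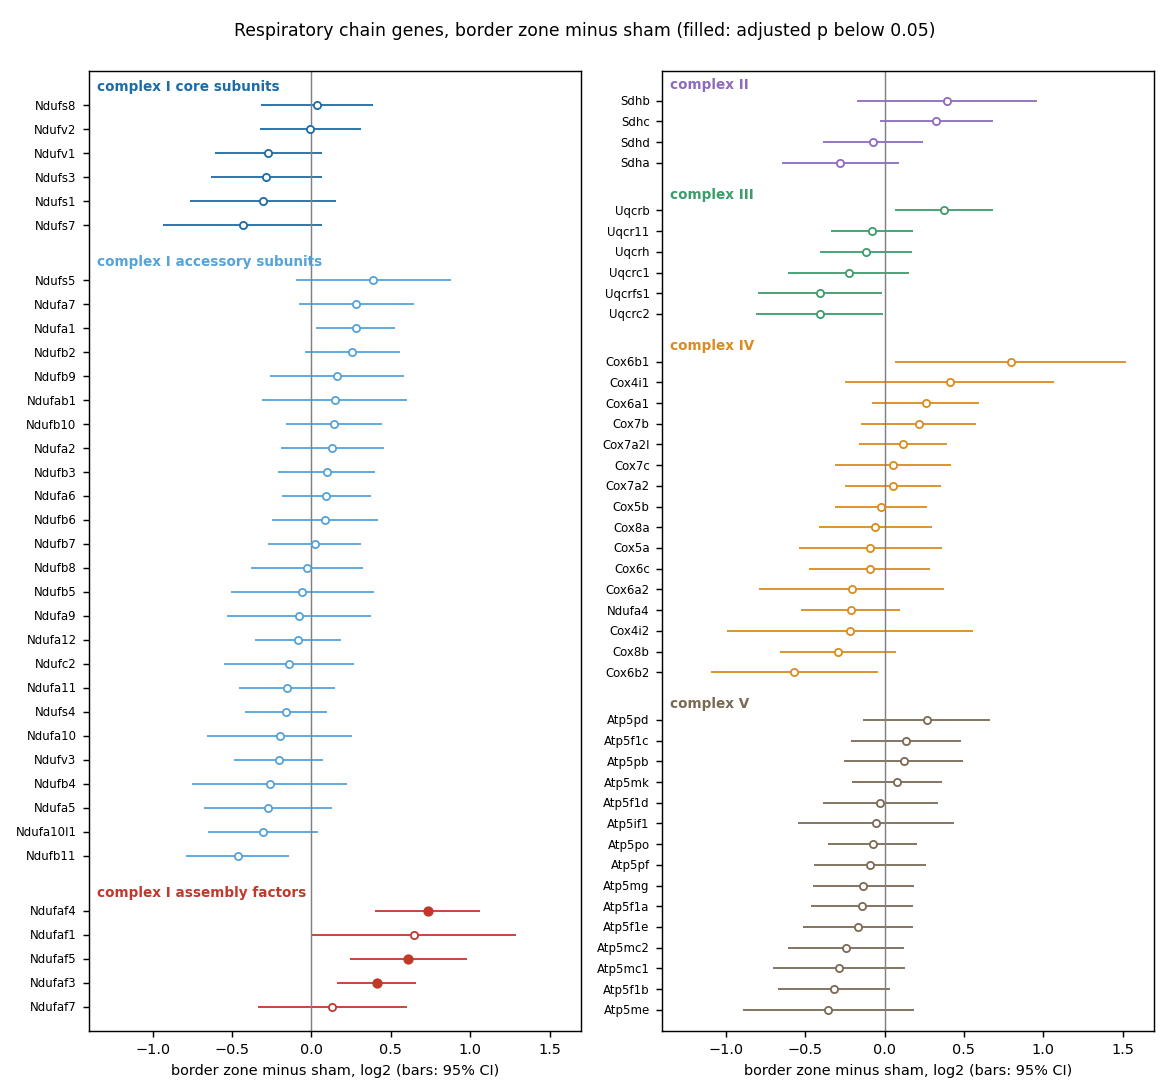
Difference between border zone and sham for the tested respiratory chain genes by complex, with 1 gene not shown, in log2 units, with the 95% confidence interval of the limma fit as bars (3 arrays a group). Filled points mark the 3 genes with an adjusted p below 0.05, all of them complex I assembly factors, and the subunits lie between -0.57 and 0.79.

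Complex I, NADH dehydrogenase, is the largest complex of the chain and is built in steps by assembly factors that are not part of the finished enzyme. Ndufaf4 showed the largest difference among the factors. Its level was 3.24, 3.02 and 3.07 in the border zone and 2.57, 2.30 and 2.27 in sham. Every border zone array was above every sham array, with C4 the closest. The mean was 3.11 ± 0.11 (SD, n = 3) against 2.38 ± 0.16 (SD, n = 3), a 1.66-fold difference (log2 0.73, SE 0.14, limma adjusted p = 0.0191). NDUFAF4 works with NDUFAF3 early in assembly, where the arm that reaches into the matrix is joined to the membrane.

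Ndufaf3 was read by 2 probes. The brighter gave 2.94, 2.99 and 2.93 in the border zone and 2.56, 2.60 and 2.47 in sham, with no overlap and the narrowest spread of the 5 factors. The difference was 1.33-fold (log2 0.41, SE 0.10, adjusted p = 0.0425), and the other probe gave 1.38-fold (adjusted p = 0.0346). Ndufaf5, which encodes an enzyme that hydroxylates an arginine of the core subunit NDUFS7, stood at 2.13, 2.21 and 2.18 in the border zone and 1.82, 1.51 and 1.35 in sham. The groups again did not overlap, with C4 the highest sham array. The difference was 1.53-fold (log2 0.61, SE 0.15, adjusted p = 0.0415).

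The remaining 2 factors did not pass. Ndufaf1, whose product joins an intermediate of the membrane arm, was at -1.29, -1.52 and -1.48 in the border zone and -1.52, -2.48 and -2.23 in sham. Its difference of 0.64 (adjusted p = 0.136) came with C5 and C6 low and C4 level with M24. Against C4 alone the difference was 0.09. Ndufaf7, a methyltransferase that acts on complex I, differed by 0.13 (adjusted p = 0.652), with overlapping groups. Ndufaf2, Ndufaf6 and Ndufaf8 had no matched probe.

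The calls of these 3 factors did not hold in every subset of arrays. When the scan was entered as a block, the border zone was compared with C4 only. In that fit the difference of Ndufaf4 was 0.54, that of Ndufaf3 0.39 and that of Ndufaf5 0.35. Its p holds no spread between sham animals, so it cannot decide whether the 3 factors pass, and its calls are not read as a test. That fit called 8.78% of coding genes higher and 8.45% lower. Without M25 the adjusted p was 0.107 for Ndufaf4, 0.192 for Ndufaf3 and 0.169 for Ndufaf5, in a fit that called 2.08% of coding genes higher and 1.57% lower. No member was called without M17 (4.84% of coding genes higher, 4.87% lower), without M24 (3.87% and 4.19%) or without C5 (4.56% and 4.9%), where Ndufaf4 had an adjusted p of 0.0677, 0.0638 and 0.0675. Without C6 only Ndufaf4 was called (adjusted p = 0.0457, beside 7.6% and 7.69%). Leaving out an array also leaves fewer samples for the test. Across all 15 alternatives run, the difference stayed above 0 for each of the 3 genes, between 0.54 and 0.92 for Ndufaf4, 0.31 and 0.60 for Ndufaf3 and 0.35 and 0.80 for Ndufaf5. Markers of leukocytes moved with them, 5 of 8 tested passing as higher with a summed level of 5.83 to 5.90 in the border zone and 3.95 to 4.50 in sham, and their part in these differences was not tested.

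**Figure D2:**
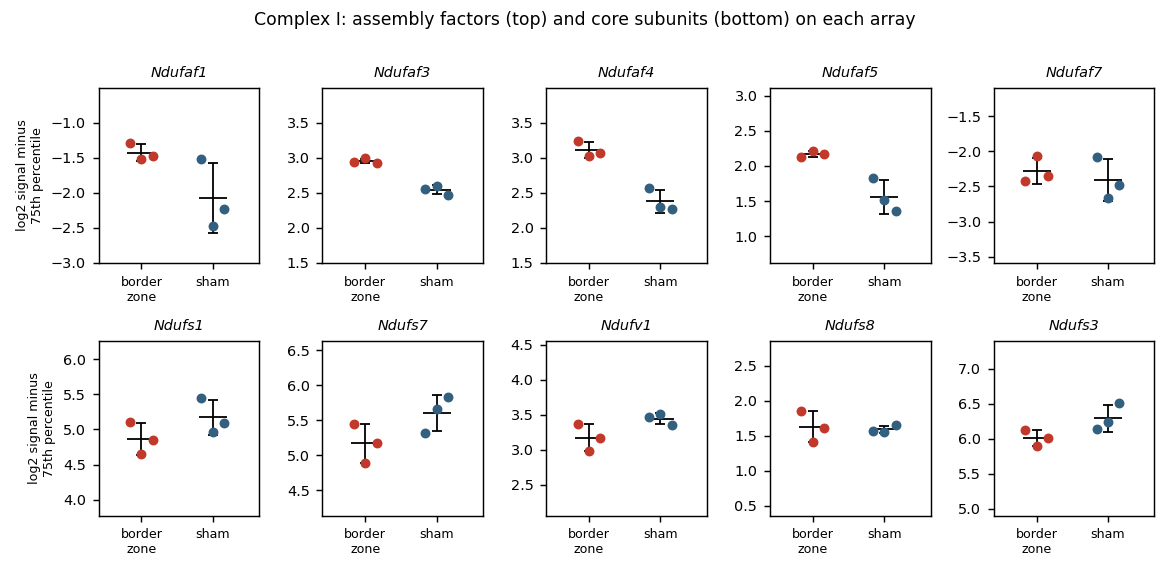
Level of 5 complex I assembly factors (top) and 5 core subunits (bottom) on each array, as log2 signal minus the array's 75th percentile; points are arrays in the order M17, M24, M25 and C4, C5, C6, and bars are the mean and SD. Ndufaf3, Ndufaf4 and Ndufaf5 show no overlap between the groups, whereas 4 of the 5 core subunits shown overlap (Ndufs3 does not).

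The 250 bases before the start of transcription of the 3 factors that rose are printed here because 2 of them share a motif that the other lacks, and those of Uqcrc1 and Atp5me, subunit genes of complexes III and V, because they hold the same motif and did not pass the test. They come from the RefSeq table for build GRCr8 and read 5′ to 3′ on the strand of the gene. Letters in capitals mark the motifs searched, on either strand: GCGCATGCG, a site of nuclear respiratory factor 1 (NRF1), CCGGAAG, the site of ETS factors such as GABPA, AAGGTCA, a site of estrogen-related receptors, and AAGATGGC, a site of YY1. GCGCATGCG reads nearly the same on both strands, so a run of the form GCGCATGCGC is matched on both and counts as 1 place.
Ndufaf4, chr5:43401545-43401794, plus strand: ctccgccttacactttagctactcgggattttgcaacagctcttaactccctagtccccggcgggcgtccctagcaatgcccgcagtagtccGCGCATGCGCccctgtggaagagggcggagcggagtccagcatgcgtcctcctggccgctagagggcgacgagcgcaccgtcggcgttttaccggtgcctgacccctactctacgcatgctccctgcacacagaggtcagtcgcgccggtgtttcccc
Ndufaf5, chr3:147961362-147961611, plus strand: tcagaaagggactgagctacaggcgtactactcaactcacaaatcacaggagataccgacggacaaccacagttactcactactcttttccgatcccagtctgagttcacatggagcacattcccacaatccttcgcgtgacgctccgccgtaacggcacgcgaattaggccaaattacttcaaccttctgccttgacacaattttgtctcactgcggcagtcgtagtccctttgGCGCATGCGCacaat
Ndufaf3, chr8:118141724-118141973, minus strand: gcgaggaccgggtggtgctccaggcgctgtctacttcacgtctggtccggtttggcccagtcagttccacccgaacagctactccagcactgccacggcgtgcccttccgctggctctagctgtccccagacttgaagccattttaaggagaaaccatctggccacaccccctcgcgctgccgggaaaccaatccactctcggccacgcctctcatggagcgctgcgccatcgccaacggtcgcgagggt
Uqcrc1, chr8:118467973-118468222, plus strand: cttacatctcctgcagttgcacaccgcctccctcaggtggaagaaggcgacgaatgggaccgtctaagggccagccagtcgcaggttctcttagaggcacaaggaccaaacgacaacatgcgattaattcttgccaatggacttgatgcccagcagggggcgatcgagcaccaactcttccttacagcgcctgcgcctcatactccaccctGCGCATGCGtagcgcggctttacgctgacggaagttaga
Atp5me, chr14:1464610-1464859, plus strand: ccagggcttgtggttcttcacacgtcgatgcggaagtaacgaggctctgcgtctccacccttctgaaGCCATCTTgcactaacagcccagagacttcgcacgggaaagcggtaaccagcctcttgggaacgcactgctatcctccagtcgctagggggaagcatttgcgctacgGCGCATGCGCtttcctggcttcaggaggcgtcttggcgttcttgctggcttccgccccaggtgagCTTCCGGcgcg

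The NRF1 letters begin 158 bases before the start in Ndufaf4 and 15 bases before it in Ndufaf5, and those of Ndufaf3 hold none of the 4 motifs. In Uqcrc1 they begin 39 bases before the start. Atp5me holds them 76 bases before the start, with the ETS letters at 11 and the YY1 letters at 183. Ndufaf1 holds the ETS letters at 24, and Ndufaf7 none of the 4.

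The letters of NRF1, ETS factors and estrogen-related receptors stood in a larger share of respiratory chain promoters than of promoters at large, as a description without a test. The YY1 letters, in 2 promoters, were too few to compare. Of the 80 genes, 71 had a window in the table, with a median GC content of 56.4% against 56.8% for coding genes on the array. NRF1 letters stood in 8 of the 71 (11.3%), against 2.19% of 11333 coding genes on the array and 1.49% of all 27457 windows. ETS letters stood in 20 (28.2%), against 11.2% and 7.74%. The letters of the estrogen-related receptors stood in 6 (8.45%), against 3.04% and 3.77%, and the YY1 letters in 2 (2.82%), against 1.81% and 1.69%. At least 1 of the 4 stood in 29 (40.8%), against 16.9% and 13.9%. The subunit genes with NRF1 letters were Ndufa11, Uqcrc1, Atp5mc2, Atp5me, Atp5mg and Atp5po, and none of them passed the test. A match is a description of the letters and shows neither binding nor an effect.

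The 7 core subunits of complex I encoded in the nucleus carry the flavin and the iron-sulfur clusters that take electrons from NADH to ubiquinone. None passed, and 5 of the 7 were below 0, with a median of -0.27. Ndufs7, which holds the last cluster of that path, had the smallest p of the group. It measured 5.44, 4.89 and 5.18 in the border zone and 5.32, 5.66 and 5.83 in sham, so that M17 lay above C4 and the groups overlapped (log2 -0.43, SE 0.21, adjusted p = 0.187). Against C4 alone its difference was -0.15.

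The other core subunits showed the same overlap in most cases. Ndufs1, the largest core subunit, measured 5.10, 4.65 and 4.86 against 5.45, 4.97 and 5.10 (difference -0.31, adjusted p = 0.289), and against C4 alone its difference was -0.59. Ndufv1, which binds NADH, measured 3.37, 2.99 and 3.17 against 3.47, 3.51 and 3.35 (difference -0.27, adjusted p = 0.21). In both, M17 reached the sham range and M24 was the lowest of the 6 arrays. In Ndufs3 the groups did not overlap (difference -0.28, adjusted p = 0.209), but the gap was small, 6.12 for M17 against 6.14 for C4. Ndufs8 stood at 0.03 and Ndufv2 at -0.01. M24 was below M17 in all 7 core subunits, and the median of M24 minus M17 was -0.38, larger in size than the median difference from sham.

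The 25 tested accessory subunits of complex I, which surround the core, had a median difference of -0.03, with 12 above and 13 below 0. Ndufb11 came closest to the threshold (difference -0.47, SE 0.13, adjusted p = 0.058). Its signal was dim, -4.59, -4.61 and -4.71 in the border zone and -4.38, -4.07 and -4.08 in sham, and it was not well above background on C5 or C6. Ndufa1, needed for the membrane arm, showed the opposite and was bright: 5.01, 5.07 and 4.97 against 4.70, 4.75 and 4.77, with no overlap, but a difference of only 0.28 (adjusted p = 0.106). It passed where probes had to be well above background on all 6 arrays (adjusted p = 0.0466). Ndufs5 was at 0.39 (adjusted p = 0.214), with C5 and C6 below the other 4 arrays and C4 at 5.75 within the border zone range of 5.69 to 5.87. Ndufa10l1, a second gene for the Ndufa10 subunit, measured 3.92, 3.49 and 3.68 against 4.04, 4.0 and 3.97 (difference -0.31, adjusted p = 0.179), and its probe and that of Ndufa10 (-0.20) may share transcripts. The 2 probes of Ndufv3, for different transcripts, lay on opposite sides of 0 at -0.21 and 0.24, each without overlap between the groups and neither past the threshold (adjusted p = 0.242 and 0.2).

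Complex II, succinate dehydrogenase, is the only complex of the chain that also belongs to the citrate cycle, and all 4 of its subunits were measured. None passed, and they fell on both sides of 0. Sdha, the flavin subunit, measured 5.60, 5.48 and 5.51 in the border zone and 5.58, 5.79 and 6.05 in sham (difference -0.28, adjusted p = 0.234). Its other probe gave -0.30. Sdhb, the iron-sulfur subunit, measured 5.24, 4.95 and 5.04 against 5.17, 4.50 and 4.39 (difference 0.39, adjusted p = 0.273). For both genes C4 lay within the border zone values, while C5 and C6 lay outside them, above in Sdha and below in Sdhb. Of the 2 membrane anchors, Sdhc was at 0.33 (5.70, 5.53 and 5.61 against 5.52, 5.09 and 5.25, adjusted p = 0.166) and Sdhd at -0.07 (adjusted p = 0.711). Against C4 alone the 4 differences were -0.06, -0.09, 0.10 and 0.02, in the order Sdha, Sdhb, Sdhc and Sdhd.

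Complex III passes electrons from ubiquinol to cytochrome c. Of its 6 tested subunits 5 were below 0, with a median of -0.17, and none passed. The Rieske iron-sulfur subunit Uqcrfs1 measured 6.16, 5.81 and 5.93 against 6.22, 6.29 and 6.60 (difference -0.41, adjusted p = 0.128). The core protein Uqcrc2 measured 6.35, 6.15 and 6.18 against 6.39, 6.62 and 6.90 (difference -0.41, adjusted p = 0.132). In both genes the groups did not overlap, and C6 was the highest array. Uqcrb, which binds near the ubiquinone site, was the one above 0: -0.47, -0.52 and -0.55 against -0.70, -0.96 and -1.01 (difference 0.38, adjusted p = 0.0887). It passed where probes had to be well above background on all 6 arrays.

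Complex IV, cytochrome c oxidase, reduces oxygen, and several of its subunits exist as isoforms of different tissues. None of the 16 tested genes passed, and the median was -0.04. Cox6b1 and Cox6b2, the general and the testis form of the subunit that faces cytochrome c, lay at opposite ends of all 78 genes. Cox6b1 measured 2.05, 1.79 and 1.89 in the border zone and 1.76, 0.65 and 0.94 in sham (difference 0.79, SE 0.30, adjusted p = 0.114). Cox6b2 measured -0.02, -0.09 and -0.12 against 0.18, 0.36 and 0.94 (difference -0.57, SE 0.21, adjusted p = 0.115). In each gene the sham arrays were far apart and C4 lay next to the border zone. The log2 ratio of Cox6b1 to Cox6b2 differed by 1.36 with all sham arrays and by 0.40 against C4. The nervous tissue markers were high on C5 and C6, the same arrays that set these 2 genes apart, and their part in it was not tested.

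For the hypoxia-inducible isoform Cox4i2 the difference was larger against C4 than over all arrays. It measured -4.24, -4.09 and -4.18 in the border zone and -3.46, -3.74 and -4.66 in sham, where C6 was not well above background. Over all arrays the difference was -0.22 (SE 0.32, adjusted p = 0.651). With the scan as a block, and so against C4 alone, it was -0.71. With quantile scaling the sign turned, to 0.17. Its widespread partner Cox4i1 measured 2.08, 1.88 and 1.95 against 1.92, 1.79 and 0.97 (difference 0.41, adjusted p = 0.315), with C6 alone far below the rest. The log2 ratio of Cox4i1 to Cox4i2 differed by 0.63, without overlap between the groups, and by 0.76 against C4. This ratio rests on the dim signal of Cox4i2.

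The isoforms of heart and skeletal muscle did not pass. Cox6a2, the striated muscle form, measured 6.77, 6.19 and 6.26 against 6.29, 6.60 and 6.94 (difference -0.21, adjusted p = 0.562), with M17 inside the sham range and M24 and M25 just below it, and its general partner Cox6a1 was at 0.26 (adjusted p = 0.228). Cox8b, also a muscle form, measured 6.69, 6.57 and 6.60 against 6.80, 6.76 and 7.18 (difference -0.29, adjusted p = 0.215), with no overlap between the groups, and Cox8a was at -0.06. Cox7a2 was at 0.05 and its relative Cox7a2l, which takes part in joining complexes III and IV, at 0.12. Ndufa4, named for complex I but now counted as a complex IV subunit, was at -0.21 (adjusted p = 0.276). The difference between the partners' changes was 0.47 for Cox6a1 over Cox6a2, 0.24 for Cox8a over Cox8b and -0.06 for Cox7a2 over Cox7a2l, with overlapping groups in all 3.

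**Figure D3:**
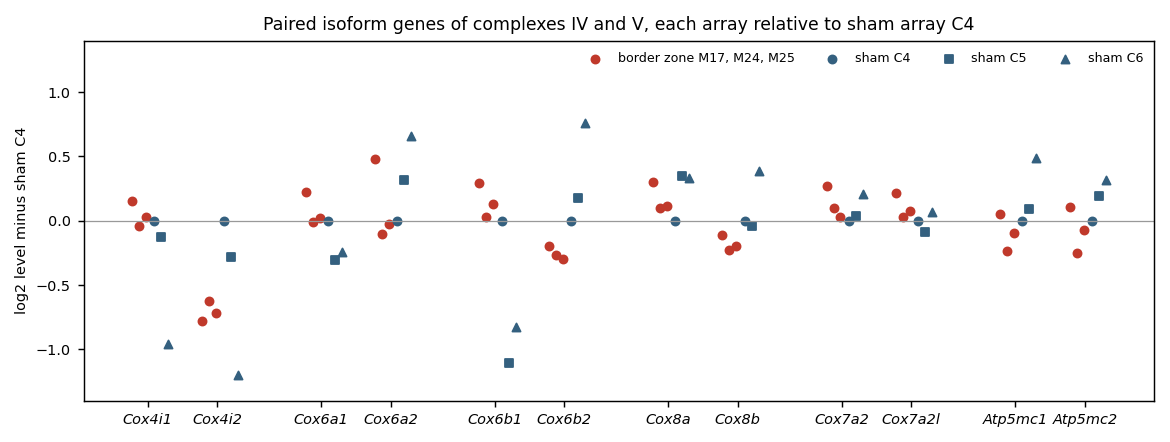
Levels of paired isoform genes of complexes IV and V on each array minus the level on sham array C4, in log2 units. For Cox6b1 the sham arrays C5 and C6 (levels 0.65 and 0.94) lie far below C4 (1.76), and for Cox4i2 the 3 border zone arrays lie below C4 and C5 but above C6.

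Complex V, the ATP synthase, had 15 tested genes, with 11 below 0, a median of -0.09 and none past the threshold. The catalytic beta subunit Atp5f1b had the smallest p: 6.56, 6.35 and 6.37 against 6.67, 6.61 and 6.96 (difference -0.32, SE 0.14, adjusted p = 0.17). The groups did not overlap, with M17 just below C5. Atp5me, which supports the dimer of the enzyme, had the lowest value, -0.35, and C6 at 6.98 was far above the other 5 arrays, which lay between 6.09 and 6.39. Atp5pd, a stalk subunit, had the highest, 0.27. The 2 measured genes for subunit c, the rotor ring, moved alike: Atp5mc1 by -0.29 and Atp5mc2 by -0.24, neither past the threshold.

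Atp5if1 encodes the inhibitor that stops the synthase from running backwards and burning ATP when oxygen is lost. It measured 4.91, 5.45 and 5.23 in the border zone and 5.02, 5.22 and 5.52 in sham, a difference of -0.05 (95% interval -0.54 to 0.43, adjusted p = 0.862). Its order in the border zone was the reverse of most members, with M24 above M17.

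The border zone arrays differed among themselves in a way that most members shared. M24 lay below M17 in 70 of the 78 genes (89.7%), against 54.1% of coding genes. The median of M24 minus M17 was -0.20 for the respiratory chain genes and -0.03 for all coding genes. The sham arrays spread more: the median range over the 3 sham arrays was 0.36, against 0.21 in the border zone, and sham was the wider group in 55 of the 78 genes. Over all coding genes the median ranges were 0.46 in sham and 0.23 in the border zone, so the wider sham spread was general. C6 was the highest of all 6 arrays in 35 of the 78 genes, and in 3715 of 10990 coding genes. Both C5 and C6 were above the other 4 arrays in 17 genes and below them in 21, beside 2736 and 2275 coding genes. Red cell markers were low on M24 alone, with a summed level of 2.91 against 5.54 to 6.13 on the other 5 arrays. Against C4 alone, 59 of the 78 genes kept the sign they had over all sham arrays. C4 is itself part of the sham mean and the border zone arrays are the same, so part of this is built in. The share over all coding genes was not counted. The part of these differences between arrays in the results was not tested. Without C4 the same fit called 10 members higher and 3 lower, beside 19.2% and 22.1% of coding genes, and the members added were genes such as Cox6b1, Sdhb, Ndufs5 and Cox6b2 in which C5 and C6 both lay on 1 side of the other arrays.

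**Figure D4:**
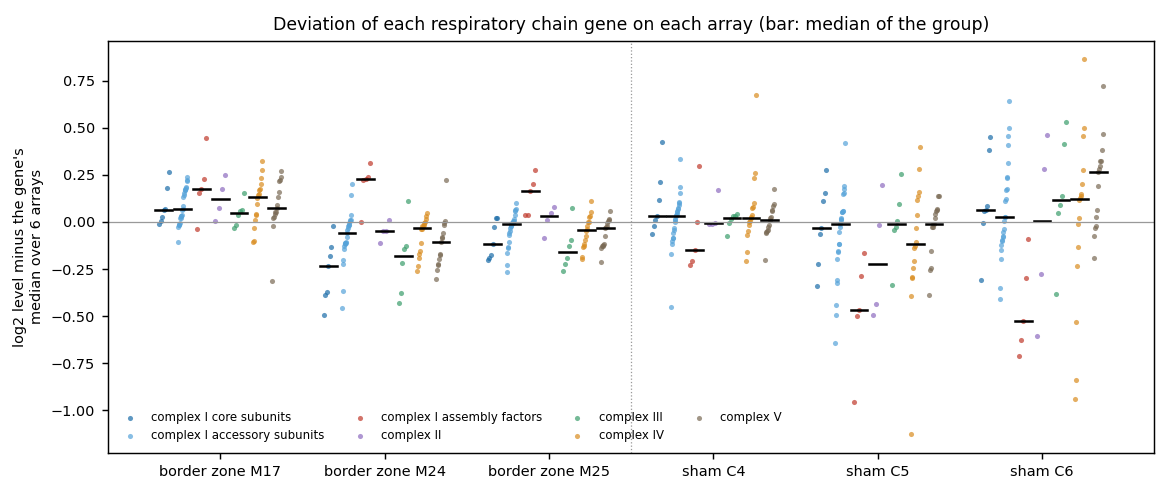
Level of each of the 78 tested genes on each array minus the gene's median over the 6 arrays, in log2 units, by complex; black bars are medians of each group of genes. Points for M24 lie lower than those for M17 in 70 genes, the assembly factors have the lowest group median on C5 and C6, and the spread is widest on C6.

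The assembly factors outside the naming rule had 3 genes past the threshold, all lower, a count near the share of all coding genes called lower. Of 29 tested, 12 were above 0 and none passed as higher (limma, 10 of 29 at an unadjusted p below 0.05 in either direction) and 3 were lower, beside 9.89% and 11.9% of all coding genes. The highest was Lrpprc at 0.91, which did not pass. Atpaf1, which helps to build the F1 part of ATP synthase, was at 0.54, 0.33 and 0.41 in the border zone and 1.00, 1.54 and 1.71 in sham, 1.99-fold lower (log2 -0.99, SE 0.21, adjusted p = 0.026). Lyrm7, a chaperone of the Rieske protein of complex III, was 1.61-fold lower (adjusted p = 0.0242), and Tmem186, of the complex I assembly machinery, 1.60-fold lower (adjusted p = 0.0293). In all 3 the groups did not overlap. Without M25 none of the 3 passed. Against C4 alone the lowest difference among the 29 genes was -0.58.

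Among 18 tested genes of electron carriers and ubiquinone synthesis, 2 were higher and 1 lower, beside 9.89% and 11.9% of all coding genes. Coq10b, a ubiquinone-binding protein that respiration needs, measured 1.01, 1.53 and 1.27 in the border zone and -0.15, 0.08 and 0.26 in sham, a 2.31-fold difference (log2 1.21, SE 0.18, adjusted p = 0.0113). Its relative Coq10a was at -0.52 (adjusted p = 0.08). Coq8b, an atypical kinase of the ubiquinone pathway, was the other (-3.36, -3.11 and -3.21 against -4.58, -4.51 and -3.70, adjusted p = 0.0417). It entered the test only through the border zone, where it was the higher, and was well above background on C4 but not on C5 or C6, so no fold is given. Its difference turned to -0.014 under the normexp background correction. Coq4, which holds the synthesis enzymes together, was 1.32-fold lower (adjusted p = 0.0486). None of these 3 genes passed without M25. Cycs, cytochrome c itself, was at 0.11 (adjusted p = 0.541).

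Of 14 tested nucleotide carriers, uncoupling proteins and creatine kinases, 1 was lower, beside 11.9% of all coding genes. Ucp3, a mitochondrial carrier of muscle linked to fatty acid use, measured -0.03, -1.23 and -0.56 in the border zone and 0.84, 0.75 and 0.66 in sham, 2.57-fold lower (log2 -1.36, SE 0.30, adjusted p = 0.0318). The border zone arrays were far apart but all were below sham. It did not pass without M25. The muscle mitochondrial creatine kinase Ckmt2 was at -0.15 and the heart ADP/ATP carrier Slc25a4 at 0.57, neither past the threshold.

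Of 22 tested regulators of mitochondrial biogenesis and mitochondrial DNA, 6 were lower and 2 higher, beside 11.9% and 9.89% of all coding genes, so that the count of higher genes was near the share over all genes. The coactivator Ppargc1a (PGC-1 alpha) measured -2.93, -2.90 and -2.86 in the border zone and -1.73, -2.02 and -1.85 in sham, 2.04-fold lower (log2 -1.03, SE 0.12, adjusted p = 0.0053). Perm1, a muscle protein that acts with PGC-1 and the estrogen-related receptors, measured 0.39, 0.62 and 0.48 against 2.16, 1.63 and 1.45, 2.38-fold lower (log2 -1.25, SE 0.21, adjusted p = 0.014). In both genes the groups stood wide apart, with C4 the highest sham array. Ppara, the receptor that drives fatty acid oxidation genes, was 2.13-fold lower (adjusted p = 0.0212).

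The DNA-binding factors went in both directions. Gabpa, whose ETS letters are the most frequent of the 4 motifs above, measured 0.41, 0.03 and 0.16 against 0.81, 0.89 and 0.74 (1.53-fold lower, adjusted p = 0.0329). Esrrg, an estrogen-related receptor, was 1.37-fold lower (adjusted p = 0.0345), and the mitochondrial deacetylase Sirt3 1.44-fold lower (adjusted p = 0.0366). Nrf1 measured -1.47, -0.91 and -1.21 in the border zone and -1.89, -2.38 and -2.23 in sham, 1.96-fold higher (log2 0.97, SE 0.20, adjusted p = 0.0262). Ppard, a receptor related to Ppara, was 1.50-fold higher (adjusted p = 0.0391). Esrra was at -0.15 (adjusted p = 0.357), Ppargc1b at -0.01 (0.989) and Tfam, which packages and transcribes mitochondrial DNA, at 0.35 (0.0819). Without M25 none of the 22 passed. Without M24 only Ppargc1a passed, without C5 only Ppargc1a and Perm1, and without M17 only Nrf1, Gabpa and Ppargc1a. Without C6 only Perm1, Ppara and Ppargc1a passed, and without C4 there were 5 higher and 6 lower. The shares of all coding genes in these fits are given above. Against C4 alone the differences of the 22 ran from -1.66 to 0.70. The leukocyte markers given above moved with these genes too. Of 8 tested markers of endothelial cells and fibroblasts, 2 passed as lower and 6 did not pass. Of the 8, 2 were above 0, the highest being Dcn at 0.40. Their summed level was 6.12 to 6.35 in the border zone and 6.69 to 7.03 in sham. The part of either in the regulators' differences was not tested.

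**Figure D5:**
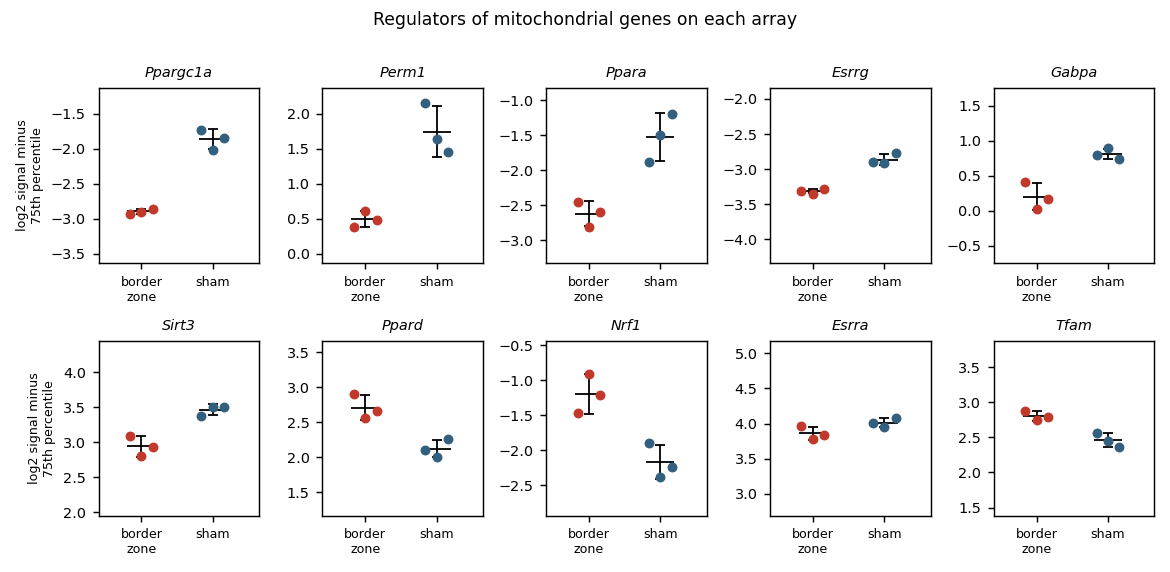
Level of 10 regulators of mitochondrial genes on each array, as log2 signal minus the array's 75th percentile; points are arrays in the order M17, M24, M25 and C4, C5, C6, and bars are the mean and SD. Ppargc1a, Perm1, Ppara, Esrrg, Gabpa and Sirt3 are lower in all 3 border zone arrays than in any sham array, and Nrf1 and Ppard are higher.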

How the data were processed

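Gene expression was measured on 6 one-colour Agilent arrays, 3 of border zone and 3 of sham tissue. The authors' scanner files hold the intensity of each spot (gProcessedSignal) after background subtraction and spatial detrending, made with Agilent Feature Extraction 11.0.1.1, per the file headers; the headers name the rn4 build, and gene symbols were taken from the GRCr8 RefSeq table through the probe accession. The authors also deposited a table of log2 values, which correlated with the scanner values at 0.998 to 1.000 on each array and was used as an alternative; its scaling is not given in the sources used here, and its column medians, 5.53 to 5.54, were nearly equal.

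Control spots and outlier flags were left out, spots of 1 probe were averaged, and log2 values were centred on each array's 75th percentile. Probes that cleared background on every array of either group (17930 of 24684; 5958 passed through the border zone alone and 36 through sham alone) were fitted with limma 3.58.1 in R 4.3.3. A gene was represented by its brightest probe. The number of arrays limits the precision. The normexp alternative used median spot signals in place of the mean signals planned. Replicate numbers of the groups are not shared and pair no arrays.

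Genes named were the members past the threshold without overlap, the tissue isoforms, complex II, the member with the smallest p in each complex, Atp5if1, and up to 3 passing genes of each pathway list. Other genes, among them Ndufaf1, Ndufaf7, Ndufa1, Ndufs1, Uqcrc2, Uqcrfs1, Nrf1, Ppard, Gabpa, Esrrg and Sirt3, were named after their values were seen. The members and the lists were chosen with earlier results of these data known. One member is counted but not reported here. Motif letters were searched in 250 bases before each start.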

Additional observations from a re-analysis of the deposited data

How the results depend on the processing

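The count of respiratory chain genes called higher, 3 in the fit reported, was 1 with median scaling, with quantile scaling, with the normexp background correction, without a filter on dim probes and with the authors' deposited table; that gene was Ndufaf4 each time. It was 5 with probes well above background on all 6 arrays, and 0 to 10 when 1 array was left out. No count of respiratory chain genes is given for the fits that compare the border zone with C4 alone, where p holds no spread between sham animals. The count called lower, 0 in the fit reported, was 1 with normexp (Cox4i2) and 0 to 3 when 1 array was left out. The median difference moved to 0.13 with median scaling, which shifted the median of all coding genes from -0.05 to 0.14. Both scalings subtract 1 value per array, so the members minus all coding genes is -0.01 under both by construction. It was -0.11 with quantile scaling and with the authors' table, 0.14 without a filter on dim probes and 0.31 with normexp. When 1 array was left out it lay between -0.06 and 0.04. With normexp the median of all coding genes was -0.27 and that of the members 0.04. Coq8b reversed to -0.014 with normexp. Over 93 genes and 15 alternatives there were 1392 differences in all. Of these, 1041 kept their direction and side of the threshold or moved by less than 1 SD, and 190 moved by more. A further 146 fell short of the threshold, 14 newly passed it and 1 reversed, and the cause was not tested. A reversal was counted only for genes past the threshold in the fit reported or in the alternative. Sign changes of other genes are among the 1041 and the 190. These totals include the fits against C4 alone, with the limit on p given above. Atp5if1, for example, kept its sign in 9 of 15 alternatives and Cox4i2 in 11 of 14. No paired analysis was possible because the groups share no replicate numbers. Signal over background limits Ndufb11 and Cox4i2, which were dim.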
